A study of Mus musculus with 4 samples.

Results

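Nr3c1 encodes the glucocorticoid receptor, and the open chromatin at this gene and its surroundings was described in adipose progenitors, the precursor cells of fat tissue. All peaks overlapping chromosome 18 from 39400000 to 40000000 on the mouse build mm9 were taken, which gave 96 of the 198854 peaks in the study. Merged across libraries wherever they shared at least 1 bp, they formed 42 of 83319 regions. The locus had been chosen by measured values, since the megabase around it held many regions with peaks in the visceral libraries only. The number of such regions and every depot value below is therefore a description, with no test.

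Accessibility was measured by ATAC-seq, which maps where a transposase can insert adapters, so that peaks of insertions stand for open chromatin. The study has 2 libraries from visceral fat (VAT 1 and VAT 2) and 2 from subcutaneous fat (SAT 1 and SAT 2) of C57BL/6 mice aged 16 weeks, from freshly isolated cells without further treatment. No source used here says whether the replicates are separate animals or how the progenitors were sorted. The whole lists held 56907 peaks in VAT 1, 62279 in VAT 2, 56823 in SAT 1 and 22845 in SAT 2. Without read counts in them the depth of each library is unknown, and where a library lacks a peak the site may still be open. Each peak has the authors' peak caller score, which ranks peaks within 1 list only. Libraries are therefore set side by side by the percentile of the score in each list, and since the lists differ in length, above all that of SAT 2, a difference in percentile is not by itself a difference in openness. The labelled cell type was not checked against marker genes, because no mm9 annotation was used.

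The glucocorticoid receptor is a nuclear receptor that binds corticosterone in mice, enters the nucleus and regulates genes directly at DNA or through other factors. Glucocorticoids promote the differentiation of preadipocytes in culture, where they act with insulin and agents that raise cyclic AMP. The gene lies on the reverse strand and has several alternative first exons, so its start is at the high end of its coordinates. Its body was taken as about 39.57 to 39.65 Mb, and positions are given relative to 39.65 Mb as the approximate gene start. In the RefSeq gene table of assembly GRCm38, used for names only, the nearest protein-coding neighbours are Arhgap26 on the downstream side, and Pabpc2, a poly(A)-binding protein gene, on the upstream side. Which regions lie inside these neighbours was not analysed here.

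Regions were densest in the downstream flank of Nr3c1, and the gene body and the upstream flank held them at a like, lower density. The body of 80 kb held 4 regions, of which 1 had a peak in all libraries, and that region adjoined the gene start. The downstream flank of 170 kb held 20 regions (11.8 per 100 kb), against 5 per 100 kb in the body and 5.14 per 100 kb in the upstream flank, where 18 regions lay over 350 kb. The longest stretch of the window without a peak in any library ran from 39541145 to 39618587, over 77.4 kb, most of it inside the gene. Such a stretch is not rare, since 7.46% of all gaps between regions in the study were at least as long. The median gap was 5.68 kb in the window and 9.33 kb in the whole study. The next gap, of 66.7 kb, began directly upstream of the gene-start cluster.

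**Figure D1:**
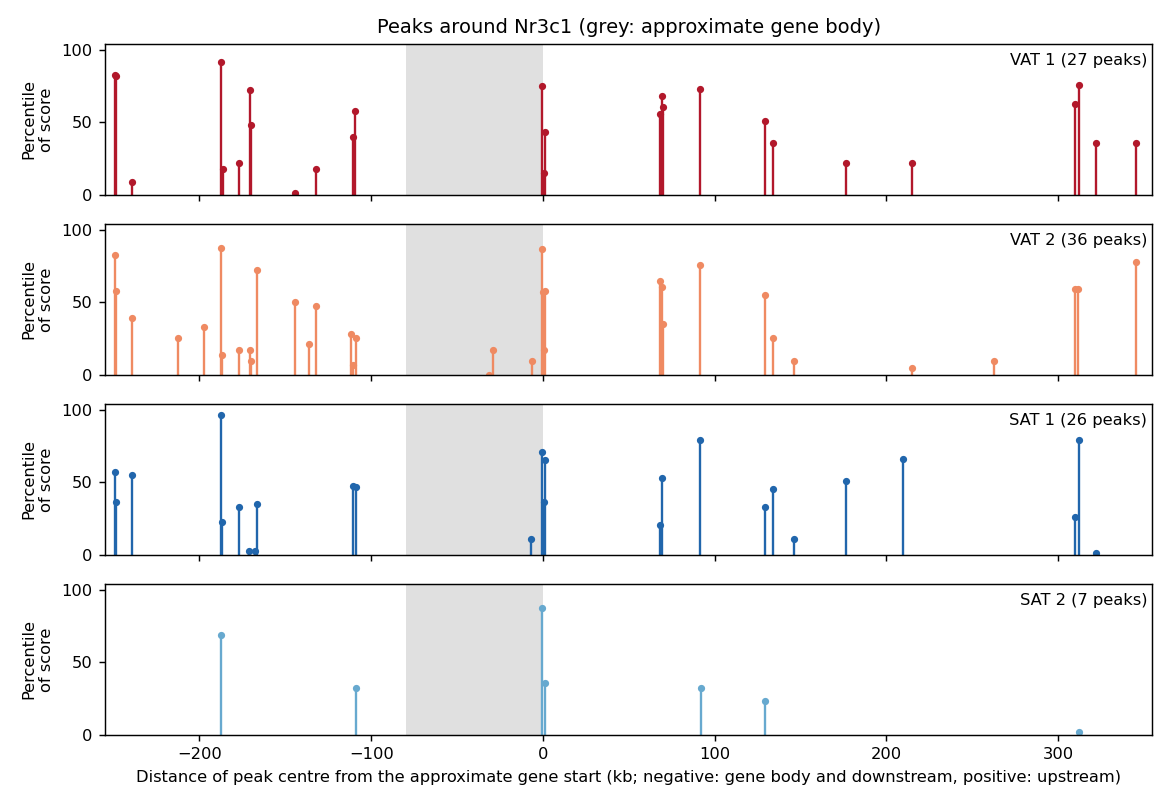
Score percentile (vertical axis, percent of the library's own list) of every peak in the window against the distance of its centre from the approximate gene start (kb), 1 panel per library, with the gene body in grey. All 4 libraries have peaks at the gene start, and the rest of the grey body has peaks in VAT 2 and SAT 1 only. The panels hold 27, 36, 26 and 7 peaks.

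At the gene start, every library had a wide peak in the region from 39649145 to 39649926. Its score was 195 in VAT 1, 272 in VAT 2, 156 in SAT 1 and 189 in SAT 2. The percentiles were 75.1 in VAT 1, 86.7 in VAT 2, 70.7 in SAT 1 and 87.2 in SAT 2, so the depots overlapped. This was the widest region of the window at 782 bp, wider than 95.7% of all regions and 82.3% of those with a peak in all libraries. The centres of its peaks lay within 80.5 bp of each other. It was the highest-scoring region of the window in SAT 2, the second in VAT 2, the fourth in SAT 1 and the fifth in VAT 1.

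Upstream of it, within 2 kb of the approximate gene start, lay 3 smaller regions. The region from 39650920 to 39651388 had a peak in all libraries, with scores of 92 in VAT 1, 116 in VAT 2, 137 in SAT 1 and 71 in SAT 2. Between these, the region from 39650557 to 39650840 was missing from SAT 2, with scores of 54 in VAT 1, 52 in VAT 2 and 77 in SAT 1. A region from 39650244 to 39650411 had a peak in VAT 2 alone, with a score of 115. The whole cluster spanned 2244 bp, and its peaks covered 1298 bp in VAT 1, 1543 bp in VAT 2, 1045 bp in SAT 1 and 794 bp in SAT 2. Both visceral libraries had more covered bases at the gene start than either subcutaneous library. VAT 2, with the most, also had the longest list, and SAT 2, with the fewest, the shortest. With each list cut to its 22845 highest-scoring peaks, this order of the depots did not hold. The peaks then left at the gene start were 665 bp wide in VAT 1 and 782 bp in VAT 2. In SAT 1 they were 412 and 455 bp wide, and in SAT 2 593 and 201 bp.

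**Figure D2:**
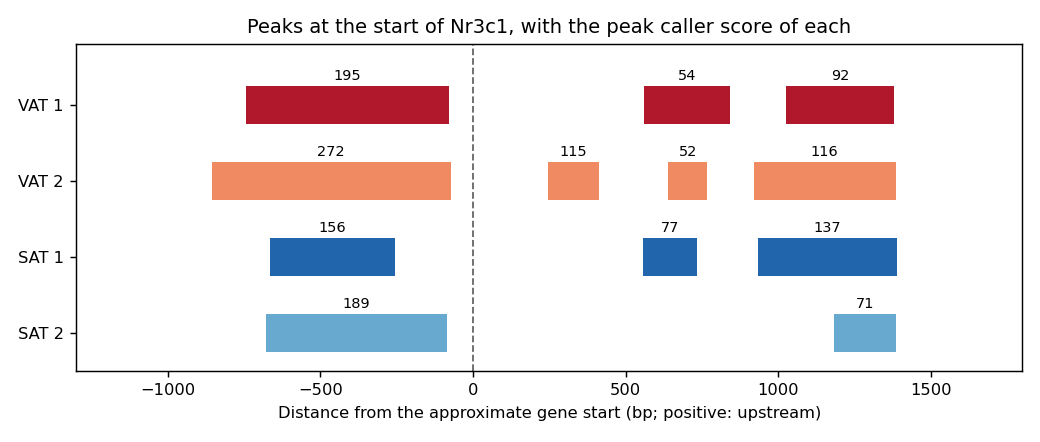
Extent of each peak (bars) at the start of Nr3c1 in each library, by distance from the approximate gene start in bp (dashed line), with the peak caller score above each bar. The wide peak and the farthest upstream peak occur in all 4 libraries, and VAT 2 alone has a peak with a score of 115 between them.

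Inside the gene body, the other 3 regions were weak. Those from 39618588 to 39618736 and from 39620616 to 39620738 had a peak in VAT 2 only, with scores of 20 and 52. A score of 20 is the lowest in any list. The region from 39643300 to 39643466 had peaks in VAT 2 (score 43) and SAT 1 (score 46), both near the percentile of 10 (9.81 in VAT 2 and 10.9 in SAT 1).

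The strongest region of the window lay outside the gene, 187 kb from its start on the downstream side, at 39462334 to 39462820. It scored 326 in VAT 1, 277 in VAT 2, 373 in SAT 1 and 124 in SAT 2, the highest score of the window in every library except SAT 2, where it came second. Its percentiles were 91.3 in VAT 1, 87.2 in VAT 2, 96.2 in SAT 1 and 69.2 in SAT 2. The centres of its peaks agreed within 57 bp. A further common region on this side, at 39540771 to 39541144, was weaker, with scores of 128 in VAT 1, 61 in VAT 2, 92 in SAT 1 and 68 in SAT 2.

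The upstream flank held 3 other regions with a peak in all libraries. The region from 39741497 to 39741986, 91.5 kb upstream, was high and even in 3 libraries, with scores of 184 in VAT 1, 186 in VAT 2 and 195 in SAT 1, and 68 in SAT 2. The region from 39961827 to 39962072, at 312 kb, scored 196 in VAT 1, 119 in VAT 2, 195 in SAT 1 and 33 in SAT 2. Its percentiles were 75.4 in VAT 1, 58.9 in VAT 2, 79.1 in SAT 1 and 2.22 in SAT 2, so the replicate 1 libraries were alike across depots and both stood above both replicate 2 libraries. The region from 39778935 to 39779232, at 129 kb, had scores of 109 in both VAT 1 and VAT 2, 72 in SAT 1 and 59 in SAT 2. Its percentiles were 50.6 in VAT 1, 55.0 in VAT 2, 33.0 in SAT 1 and 23.6 in SAT 2. Of the 7 common regions it was the single one in which both visceral percentiles were above both subcutaneous ones. The share of common regions elsewhere with this order was not counted, so the count here cannot be called high or low.

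These 7 common regions were 16.7% of the 42 regions in the window, against 23.2% of all regions in the study. Their peaks ranked lower than those of common regions elsewhere. The median percentile was 72.9 against 80.3 elsewhere in VAT 1, 58.9 against 83.5 in VAT 2, 70.7 against 80.4 in SAT 1 and 32.4 against 55.6 in SAT 2. Every SAT 2 peak of the window lay in a common region. This is close to the rest of the study, where 19343 of the 21333 regions with a SAT 2 peak were common. SAT 2 alone was missing from another 10 regions, which is 23.8% of the window and 19.5% of all regions.

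**Figure D3:**
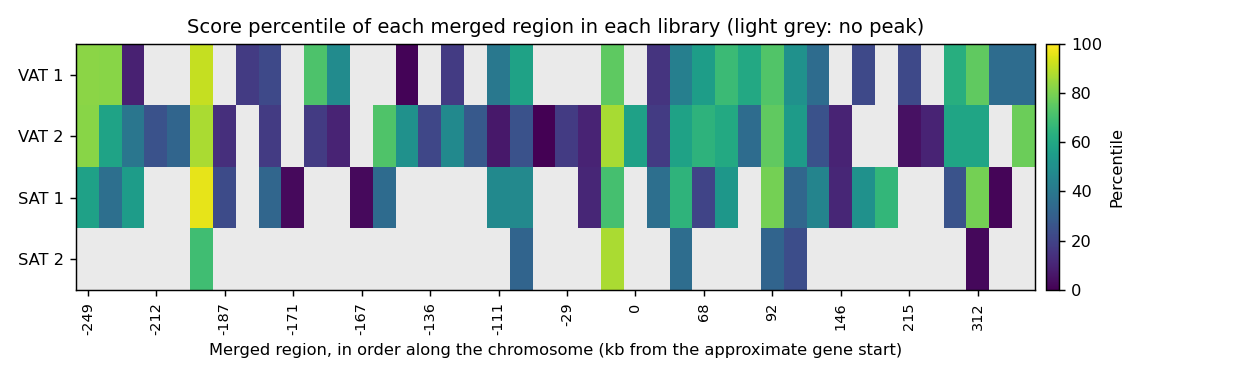
Score percentile (colour) of the 42 merged regions, in order along the chromosome, in each library, with light grey where the library had no peak. The 7 columns filled in all 4 rows are also the only ones filled in the SAT 2 row. Elsewhere in the study, 19343 of the 21333 regions with a SAT 2 peak were filled in all 4 libraries.

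Peaks in the window were more numerous in the visceral libraries, with 27 in VAT 1 and 36 in VAT 2, against 26 in SAT 1 and 7 in SAT 2. VAT 1 and SAT 1, whose lists are nearly equally long, differed by a single peak. The mean was 31.5 ± 6.36 in visceral and 16.5 ± 13.4 in subcutaneous libraries (SD, n = 2 each), so the difference of the means was of the size of the subcutaneous spread. As a share of each list, the window held 0.0474% of the peaks of VAT 1, 0.0578% in VAT 2, 0.0458% in SAT 1 and 0.0306% in SAT 2. Covered length was 6259 bp in VAT 1, 8032 bp in VAT 2, 5579 bp in SAT 1 and 1726 bp in SAT 2. Peaks of the window were of middling or low rank, with median percentiles of 48.1 in VAT 1, 34.0 in VAT 2, 40.9 in SAT 1 and 32.4 in SAT 2. With all lists cut to the same length, the 22845 peaks with the highest scores, the window held 10 peaks of VAT 1, 7 of VAT 2, 6 of SAT 1 and 7 of SAT 2.

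Regions with peaks in VAT 1 and VAT 2 and in neither subcutaneous list numbered 7 in the window, or 16.7%, against 4.60% of all regions. This is the count for which the locus was chosen. Regions with peaks in SAT 1 and SAT 2 only numbered 0 of 42, against 0.110% of all regions, a class too rare in the study for its absence here to be read as a difference. The visceral count moved with the libraries used and with the merging of peaks. It was 17 without SAT 1, 15 without VAT 1, 8 without VAT 2 and 7 without SAT 2, and the subcutaneous count was 3 without SAT 2. When a library was left out, the remaining library alone defined its depot, so by construction these counts could only stay or rise. Without SAT 1, regions with peaks in VAT 1, VAT 2 and SAT 1 only were added, a class of 19.5% of all regions. Without VAT 1, regions of VAT 2 alone were added, a class of 19.6% of all regions. The full study shares under these settings were not counted, and the 4.60% does not apply to them. Joining peaks up to 500 bp apart left 4 of the 7 as visceral-only regions, since the other 3 then included a SAT 1 peak.

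Of the 7 regions, 4 lay in the downstream flank, 3 in the upstream flank and 0 in the gene body. The region from 39995396 to 39995557 scored 80 in VAT 1 and 198 in VAT 2, and the nearest SAT 1 peak was 19880 bp away. The region from 39479395 to 39479620 scored 180 in VAT 1 and 52 in VAT 2, but a SAT 1 peak lay 190 bp away. Its neighbour from 39479937 to 39480094 scored 103 in VAT 1 and 43 in VAT 2. The visceral percentiles differed widely in each of these regions, at 35.4 in VAT 1 and 77.7 in VAT 2 for the first, 71.9 and 17.3 for the second, and 48.1 and 9.81 for its neighbour. In none of the 7 regions did the weaker of the visceral peaks rank above the percentile of 35.4.

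The region from 39719962 to 39720094 scored 135 in VAT 1 and 72 in VAT 2, and lay 450 bp from a SAT 1 peak. The region from 39505314 to 39505573 scored 30 in VAT 1 and 99 in VAT 2, and the region from 39517968 to 39518179 scored 56 in VAT 1 and 92 in VAT 2. For both, the nearest SAT 1 peak was more than 20 kb away (21679 bp and 20988 bp). The region with the lowest mean of the visceral percentiles (13.2), from 39864707 to 39864961, scored 62 in VAT 1 and 35 in VAT 2. The weaker of the 2 visceral peaks had a median percentile of 17.3 in these 7 regions, and also 17.3 in the visceral-only regions elsewhere. With lists of equal length, the lowest scores kept were 134 in VAT 1, 131 in VAT 2, 120 in SAT 1 and 20 in SAT 2. Of the 7 regions, 0 then kept both visceral peaks. This followed from the cut, since their weaker visceral peaks ranked at a percentile of 35.4 or lower. The share of visceral-only regions elsewhere that kept both was not counted. Another region, from 39400659 to 39401035, then had peaks in both visceral libraries only, because its SAT 1 peak, with a score of 115, fell below the cut.

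That region was the first of the window, and in the full lists it ran from 39400647 to 39401095 and also had a SAT 1 peak. Its scores were 242 in VAT 1, 232 in VAT 2 and 115 in SAT 1, at percentiles of 82.8, 82.4 and 57.3. The adjoining region from 39401395 to 39401627 scored 239 in VAT 1, 118 in VAT 2 and 77 in SAT 1. The percentiles there were 82.2 in VAT 1, 57.9 in VAT 2 and 36.5 in SAT 1, so both visceral libraries ranked above SAT 1 at this pair of sites, 248 kb to 249 kb from the gene start. A pair of regions 68.1 kb and 69.1 kb upstream of the gene showed the same order. The first of them scored 120 in VAT 1, 138 in VAT 2 and 56 in SAT 1, and the second scored 163 in VAT 1, 125 in VAT 2 and 105 in SAT 1. Their percentiles were 55.6, 64.7 and 20.5 for the first, and 68.3, 60.9 and 53.0 for the second, in the same order of libraries. The opposite order was the more frequent in the window, with both visceral percentiles below SAT 1 in 9 regions and above it in 7. An example lay 239 kb downstream, at 39410643 to 39410849. It scored 46 in VAT 1, 79 in VAT 2 and 110 in SAT 1, at percentiles of 8.99, 39.3 and 55.2.

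Among the 17 regions with a peak in VAT 1, VAT 2 and SAT 1, both visceral percentiles were above that of SAT 1 in 7 (41.2%, against 34.6% of such regions in the study). Both were below it in 9 (52.9%, against 28.6%), and SAT 1 stood between them in 1. Whether the shared regions ranked higher in the visceral lists as a group depended on the measure. The median percentiles of the 17 regions were 57.5 in VAT 1, 57.9 in VAT 2 and 47.4 in SAT 1. Taken region by region, the median difference of VAT 1 minus SAT 1 was -3.68 points, with a range from -46.2 to 45.7. For VAT 2 minus SAT 1 it was -7.66 points, with a range from -40.8 to 44.1. The medians and the median differences point in opposite directions.

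The other combinations of libraries crossed the depots or held 1 library. Regions with peaks in VAT 2 and SAT 1 only numbered 4 (9.52%, against 4.93% of all regions), and those in VAT 1 and SAT 1 only numbered 2 (4.76%, against 9.37%). The highest of the first kind, from 39483440 to 39483702, scored 170 in VAT 2 and 73 in SAT 1. The highest of the second kind, from 39826320 to 39826464, scored 62 in VAT 1 and 100 in SAT 1. Peaks in a single library made up 12 regions. They comprised 1 of VAT 1 (2.38%, against 8.58% of all regions), 8 of VAT 2 (19.0%, against 19.6%) and 3 of SAT 1 (7.14%, against 7.84%). The strongest peak found in 1 library alone was that of SAT 1 from 39859740 to 39859900, with a score of 140 and a percentile of 66.3.

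**Figure D4:**
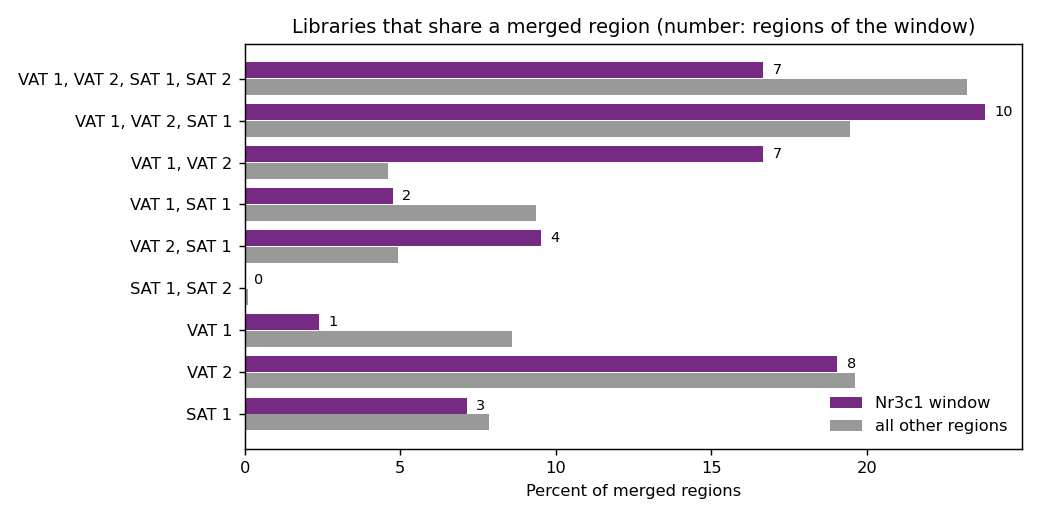
Percent of merged regions (horizontal axis) found in each combination of libraries, for the Nr3c1 window (purple, with the number of regions) and for all other regions (grey). Visceral-only regions make up 16.7% of the window and 4.60% of the others, and the share in all 4 libraries is lower in the window.

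Set beside windows of the same length of 600 kb, the locus was rich in regions. Its 42 regions were more than in 87.0% of the 4005 windows that held any region, where the median was 18. Its 7 common regions exceeded those of 71.2% of windows, with a median of 3. For visceral-only regions the median was 1 per window, 3 windows held more than 7, and 14 windows, this one included, held 7. The locus was chosen for its visceral-only count, so a high place of that count among the windows follows from the choice. The count was also not adjusted for the number of regions in a window. In the surrounding megabase from 39 to 40 Mb, the other 7 of its 14 visceral-only regions lay outside the window, among 46 further regions on the side of Arhgap26.

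**Figure D5:**
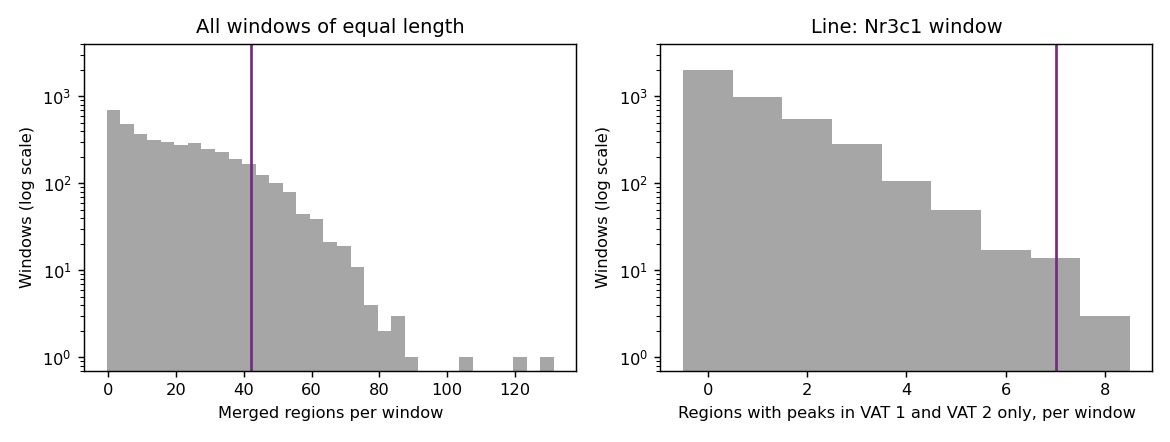
Number of windows of 600 kb (vertical axis, log scale) by merged regions per window (left) and by regions with peaks in both visceral libraries only (right). Lines mark the Nr3c1 window, at 42 and 7 regions, against medians of 18 and 1. The locus was chosen for the count on the right.

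The limits of the window cut through no peak. Just inside its lower end, the first peaks scored 242 in VAT 1, 232 in VAT 2 and 115 in SAT 1, and just outside it the nearest scored 140 in VAT 1, 89 in VAT 2 and 115 in SAT 1. At the upper end the last peaks inside scored 80 in VAT 1, 198 in VAT 2 and 30 in SAT 1, and the first outside scored 161 in VAT 1, 152 in VAT 2 and 207 in SAT 1. SAT 2 had no peak between 39223929 and 39462395, nor between 39962042 and 40378928.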

How the data were processed

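ATAC-seq peak lists of 4 libraries were used, grouped by the depot and replicate number in the sample titles. Per the submitters' processing notes, the tools were Bowtie2 and MACS2 and the build was mm9. The sources used here do not give versions, options, or the treatment of duplicates, transposase offset and repeats. Each deposited list has a score per peak, a whole number of 20 or more, whose scaling no header states. It was used within a list only, as its mid-rank percentile.

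Peaks sharing at least 1 bp were merged over the lists, and a region's value in a library was its highest peak. Positions count from 1 on mm9. The window and the gene bounds were given with the choice of the locus, and the members and rules were chosen with earlier results of these data known. Named by rule were the common regions (up to 10), those of 1 depot, the leading region of each other pair of libraries and the widest; others named were chosen after their values were seen. No test was made, since the locus was chosen by its values. Related genes of the glucocorticoid pathway and marker genes need mm9 annotation and were not analysed here. Depth is unknown. Computations ran in Python 3.11.15 (pandas 2.3.3, numpy 2.4.6, matplotlib 3.10.9). Merging was tested on simulated sites set far apart, so that test did not cover close neighbours. On the peak lists themselves it gave the same 83319 regions as bedtools 2.31.1.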

Additional observations from a re-analysis of the deposited data

How the results depend on the processing

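The 42 regions became 21 in the top 50% of each list by score and 17 with lists of equal length; the gene body alone holds 4 and the whole megabase 88. Regions with a peak in all libraries (7) numbered 2 in the top 50%, 3 with equal length, 1 in the gene body and 12 in the megabase. Visceral-only regions (7) numbered 4 in the top 50%, 1 with equal length, 4 when merged within 500 bp, 0 in the gene body and 14 in the megabase. The 4 in the top 50% were not among the 7, whose weaker visceral peaks ranked at a percentile of 35.4 or lower. In the full lists these 4 sites also had a SAT 1 peak, which fell outside the top 50%. Subcutaneous-only regions (0) numbered 1 with equal length. It was the gene-start region from 39650920 to 39651388, which had a peak in all libraries in the full lists. Its visceral scores, 92 in VAT 1 and 116 in VAT 2, were below the lowest scores kept, 134 and 131. By construction, fewer peaks enter in the top 50% and with equal length, and another length of sequence in the gene body and the megabase; merging within 500 bp keeps all peaks and joined 3 of the visceral-only regions to a SAT 1 peak. With each library left out in turn, the counts ranged from 34 to 42 regions, 7 to 17 common, 7 to 17 visceral-only and 0 to 3 subcutaneous-only regions. Leaving out SAT 2 gave the 17 common regions, leaving out SAT 1 the 17 visceral-only regions. Study-wide shares with a library left out were not counted. The remaining library then alone defined its depot, so the visceral-only and subcutaneous-only counts could by construction only stay or rise. A 50% reciprocal overlap, 200 bp around peak centres and assignment by region centre moved no count by more than 1.5 times. No paired analysis was possible because each count is 1 value over both depots, with no test to which a block for replicate number could be added; percentiles of VAT 1 and SAT 1 are set side by side in the results. Unknown depth limits what an absent peak means, most of all in SAT 2.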
